A study of Apis mellifera with 6 samples.

Results

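*Complementary sex determiner* (*Csd*), *feminizer* (*Fem*) and *doublesex* (*Dsx*) are the core of the honey bee sex determination pathway, and their RNA was followed here in the brains of queens, workers and drones. Members were chosen by position, as every reference transcript whose exon coordinates fall on 1 of these 3 genes of the RefSeq annotation of the Amel_HAv3.1 assembly. This gave 7 transcripts of 28232 that could be paired with a gene, and 3 genes of 12289.

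The libraries came from the central brain of honey bees (*Apis mellifera*) taken at adult emergence, with the optic lobes taken off and, in workers, the hypopharyngeal glands as well. Each of the 6 RNA-seq libraries was made from a pool of 5 brains, with 2 pools each of queens and workers, which are diploid females, and of drones, which are haploid males. No treatment or engineered allele was involved, and all bees descended from the same mother queen, so that p-values measure the spread between pools of bees from a single mother. Poly(A) RNA was sequenced with the strand kept, and the authors estimated with Kallisto how many reads came from each reference transcript.

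In honey bees sex is set by the alleles of *Csd*, which encodes a splicing regulator. An egg with different alleles makes an active protein that directs the female splicing of *Fem*, while the single allele of a haploid male, or a pair of identical alleles, does not. *Fem* encodes a related splicing regulator that maintains its own female splicing and directs that of *Dsx*. *Dsx* encodes a DM-domain transcription factor that is made in sex-specific forms from the same gene, and in insects it shapes sexual differences of the body and the nervous system.

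The genes lie at 2 places in the genome. *Csd* (gene 406074) runs on the minus strand of chromosome 3 from 11771679 to 11781139 and has a single annotated transcript of 1737 nt in 9 exons. *Fem* (gene 724970) follows on the same strand from 11792751 to 11800256, 11611 bp away, with a single transcript of 1489 nt in 10 exons. Both transcripts hold exons of 185 nt, 111 nt and 144 nt, in that order. *Dsx* (gene 725126) spans 91468 bp on the plus strand of chromosome 5, from 3529523 to 3620990, and has 5 annotated transcripts.

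*Dsx* was the most abundant of these genes per unit of length in each library, by a wide margin in females and a smaller one in drones. It was the only gene of the 3 that was lower in drones than in females. *Csd* and *Fem* were read at very low levels and were higher in drones. Library totals ran from 7685185 to 44373783 estimated counts, and all 3 genes passed the filter on low counts (at least 5 counts in at least 3 libraries). Levels are given in CPM, the count scaled to a common library size after TMM normalization, when libraries are compared for a gene, and in TPM, which also divides by transcript length, when genes are compared. Genes were tested by quasi-likelihood in edgeR, p-values were adjusted by Benjamini-Hochberg across the 9688 genes tested (FDR), and a call is an FDR below 0.05. The contrast of drones with females sets the drone mean against the average of queens and workers, and the contrasts of single pairs share libraries with it and with each other.

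*Dsx*, the effector of the pathway, was read in worker replicates 1 and 2 at 62.8 and 61.8 CPM, in queen replicates 1 and 2 both at 76.6 CPM, and in drone replicates 1 and 2 at 19.2 and 17.7 CPM. The drone libraries thus lay far below all female libraries, and queens lay above workers by a smaller step. Group means were 62.3 ± 0.718 CPM (SD, n = 2) in workers, 76.6 ± 0.0119 CPM in queens and 18.5 ± 1.10 CPM in drones. Relative to females, *Dsx* was 3.72-fold lower in drones (log2 fold change -1.89, standard error 0.09, FDR 1.42e-07). It was 4.12-fold lower than in queens (log2 fold change -2.04, standard error 0.10, FDR 1.56e-07) and 3.35-fold lower than in workers (-1.75, standard error 0.10, FDR 7.70e-07). These calls held under each of the alternative settings tried, with a log2 fold change between drones and females of -2.40 to -1.81.

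Between the female castes the difference in *Dsx* was small. Queens were 1.23-fold above workers (log2 fold change 0.30, standard error 0.09, FDR 0.0443 in edgeR's test). This call was lost when any single queen or worker library was left out, with an FDR of 0.142 to 0.231, and also under other settings including DESeq2 (FDR 0.0845).

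Many genes differed between the phenotypes in these brains, so a call alone is common. An FDR below 0.05 was reached by 31.4% of all genes tested between drones and females (15.0% higher and 16.4% lower in drones), by 30.7% between drones and queens (13.8% higher and 16.9% lower in drones), by 28.6% between drones and workers (13.4% higher and 15.2% lower in drones), and by 22.2% between queens and workers (11.9% higher and 10.4% lower in queens). Against that background, 3 of the 3 sex determination genes were called between drones and females and between drones and queens, while only *Dsx* was called between drones and workers and between queens and workers. Drone libraries lay outside the range of the female libraries for each of the 3 genes. The share of all genes with such a separation was not counted, so it does not set these genes apart. The joint test of caste, which asks whether any phenotype differs, gave an FDR of 3.32e-07 for *Dsx*, 0.0194 for *Csd* and 0.0548 for *Fem*, where 38.9% of genes were called. In bulk samples fewer cells that express a gene and less of its RNA per cell cannot be told apart.

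**Figure D1:**
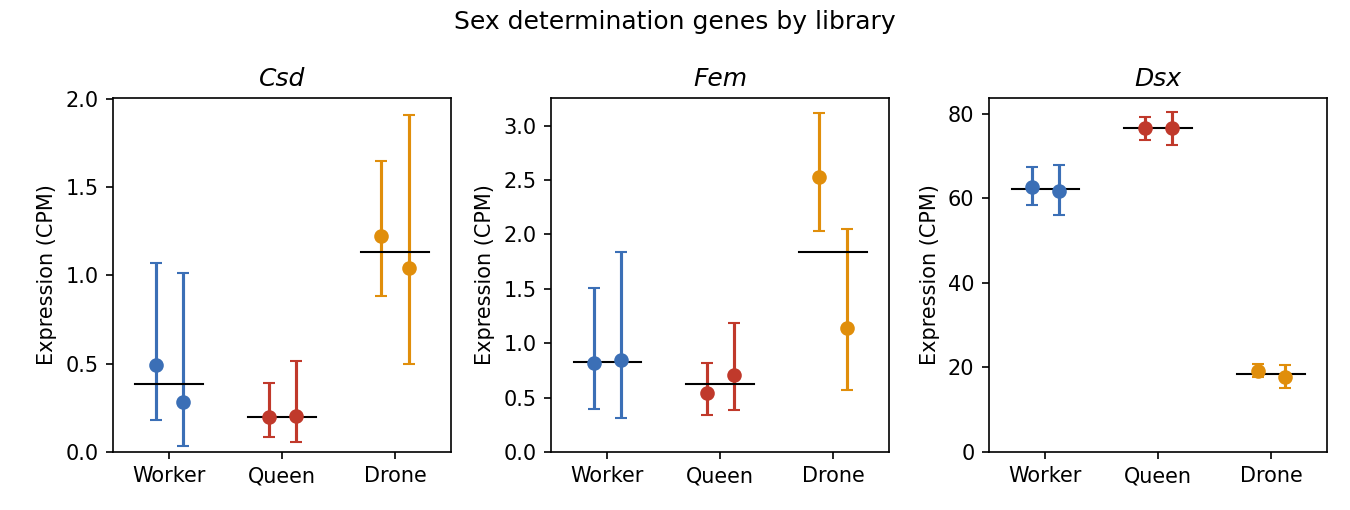
Expression of *Csd*, *Fem* and *Dsx* in CPM (y axes start at 0 and differ between panels) for the 2 libraries each of workers, queens and drones. Points are libraries, bars their exact 95% Poisson intervals, which cover counting error only, and horizontal lines group means. Drone libraries lie above the female libraries for *Csd* and *Fem*, with wide intervals, and below them for *Dsx*, at 19.2 and 17.7 against 61.8 to 76.6 CPM.

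*Csd*, the primary signal of the pathway, was counted only 6 and 2 times in workers, 8 and 4 times in queens, and 43 and 10 times in drones (replicates 1 and 2). These counts correspond to 0.491 and 0.281 CPM in workers, 0.197 and 0.201 CPM in queens, and 1.22 and 1.04 CPM in drones. The 2 counts of worker replicate 2 lie under the limit of 3 counts below which a level is not distinguished from 0. Exact 95% Poisson intervals ran from 0.885 to 1.65 CPM in drone replicate 1 and from 0.499 to 1.91 CPM in drone replicate 2, and that of worker replicate 1 reached 1.07 CPM, so counting error alone lets drone and worker libraries overlap.

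Among female libraries, *Csd* reached 5 counts only in worker replicate 1 and queen replicate 1. It thus passed the filter of 5 counts in 3 libraries only through the drone libraries, where it is high. The counts above describe the difference, and the tests of *Csd* are no independent support. In the fit, *Csd* was 3.97-fold higher in drones than in females (log2 fold change 1.99, standard error 0.50, 95% interval 0.86 to 3.12, FDR 0.0131 in edgeR's test). Against queens the log2 fold change was 2.49 (standard error 0.60, FDR 0.0103), and against workers it was 1.49 and not called (standard error 0.64, FDR 0.114). Queens stood 2.01-fold below workers with no call (95% interval of the log2 fold change -2.62 to 0.62, FDR 0.360). The call between drones and females was lost without drone replicate 1 (FDR 0.105), without queen replicate 1 (0.0566) and without queen replicate 2 (0.0527), and with DESeq2 (0.0643). The call against queens was lost without the same libraries (0.0566, 0.0973 and 0.0865), as was that of the joint test (0.103, 0.108 and 0.107). The log2 fold change between drones and females was between 1.84 and 2.30 when libraries were left out.

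*Fem*, which passes the signal on, was counted 10 and 6 times in workers, 22 and 14 times in queens, and 89 and 11 times in drones. In CPM this was 0.819 and 0.844 in workers, 0.542 and 0.705 in queens, and 2.53 and 1.14 in drones. All female libraries were close together, whereas the drone pools differed from each other more than the lower of them did from the highest worker library. *Fem* was 2.68-fold higher in drones than in females (log2 fold change 1.42, standard error 0.43, 95% interval 0.45 to 2.40, FDR 0.0320 in edgeR's test) and higher in drones than in queens (1.64, standard error 0.51, FDR 0.0350). Against workers it was not called (1.21, 95% interval -0.03 to 2.45, FDR 0.135), and queens and workers did not differ beyond their spread (-0.43, 95% interval -1.73 to 0.87, FDR 0.644).

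The *Fem* calls rested on drone replicate 1. Without this library the log2 fold change was 0.68 against females (FDR 0.477) and 0.89 against queens (FDR 0.347), and without drone replicate 2 it was 1.82 against females (FDR 0.00852), 1.60 against workers (FDR 0.0419) and called in the joint test (FDR 0.0141). The call against females was also lost without worker replicate 1 (FDR 0.0769), worker replicate 2 (0.0711), queen replicate 1 (0.118) or queen replicate 2 (0.0733), although the log2 fold change then stayed between 1.37 and 1.50. Against queens it was lost without queen replicate 1 (0.223), queen replicate 2 (0.127) or worker replicate 2 (0.0517). DESeq2 did not call either contrast (FDR 0.0989 and 0.0903). Within the drone replicate 1 library, reads were also found on the gene that lies inside a *Fem* intron, as described with the neighbours of *Csd* and *Fem*.

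The estimated counts of *Csd* and *Fem* were whole numbers in all 6 libraries (within 0.001), as is the case where no read is divided between transcripts. How many reads of *Csd*, whose alleles differ strongly in sequence, failed to match the single reference allele was not tested. Because each gene has 1 reference transcript, the male and female splice forms of *Fem* were not measured here, and no test of transcript usage was possible for *Csd* or *Fem*.

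**Figure D2:**
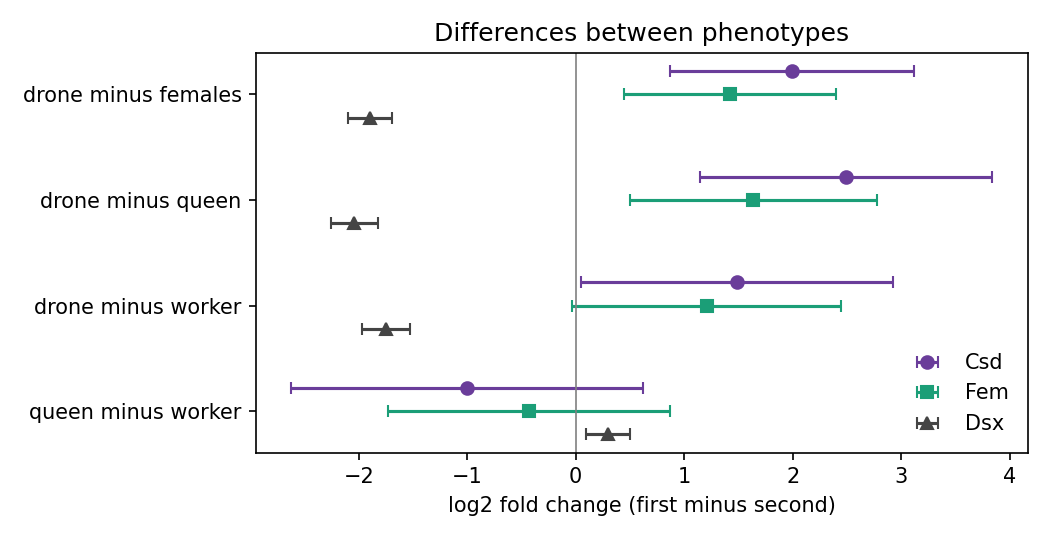
Log2 fold changes of *Csd*, *Fem* and *Dsx* for 4 contrasts (x axis, first phenotype minus second), with 95% intervals from the fit across all genes. *Dsx* lies near -2 with short intervals in each contrast with drones and at 0.30 between queens and workers, while the intervals of *Csd* and *Fem* are several times as wide.

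Set side by side per unit of length, the order was *Dsx*, then *Fem*, then *Csd* in each of the 6 libraries. *Dsx* stood at 17.7 and 17.0 TPM in workers, 23.4 and 24.1 TPM in queens, and 4.59 and 4.07 TPM in drones. *Fem* stood at 0.960 and 0.951 TPM in workers, 0.689 and 0.928 TPM in queens, and 2.50 and 1.12 TPM in drones. *Csd* stood at 0.485 and 0.268 TPM in workers, 0.211 and 0.223 TPM in queens, and 1.02 and 0.857 TPM in drones.

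These levels place *Dsx* above 70.1% of all genes in queen replicate 1 but above 58.6% in drone replicate 2. *Csd* ranked above 18.6% of genes in queen replicate 2 and above 43.1% in drone replicate 2. The ratio of *Dsx* to *Fem* within a library, which does not depend on the scaling between libraries, was 18.4 and 17.8 in workers, 34.0 and 25.9 in queens, and only 1.84 and 3.62 in drones. The ratio of *Csd* to *Fem* showed no such separation, with 0.505 and 0.282 in workers, 0.306 and 0.240 in queens, and 0.406 and 0.762 in drones.

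The *Dsx* transcripts differ at their ends, in 1 internal exon and in the end of the second exon, and are named here by length. The 6217-nt transcript has 6 exons, lacks the last 18 nt (3541219 to 3541236) that the second exon holds in the other transcripts, and ends in a last exon of 3816 nt (3617175 to 3620990). The 3359-nt and 2504-nt transcripts use only the first 82 nt of that last exon and stop at 3617256. They are identical except for an 855-nt exon (3563841 to 3564695), which the 3359-nt transcript includes as the fifth of its 7 exons and the 2504-nt transcript skips. The 6217-nt transcript skips it too. The 2337-nt transcript ends inside this exon at 3564023, and the 1992-nt transcript has only 2 exons and ends at 3541453. As background, sex-specific *Dsx* forms in insects arise by use or skipping of a female exon, and the gene table lists the names Am-dsxF1 and Am-dsxM as synonyms of the gene without tying them to a transcript.

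**Figure D3:**
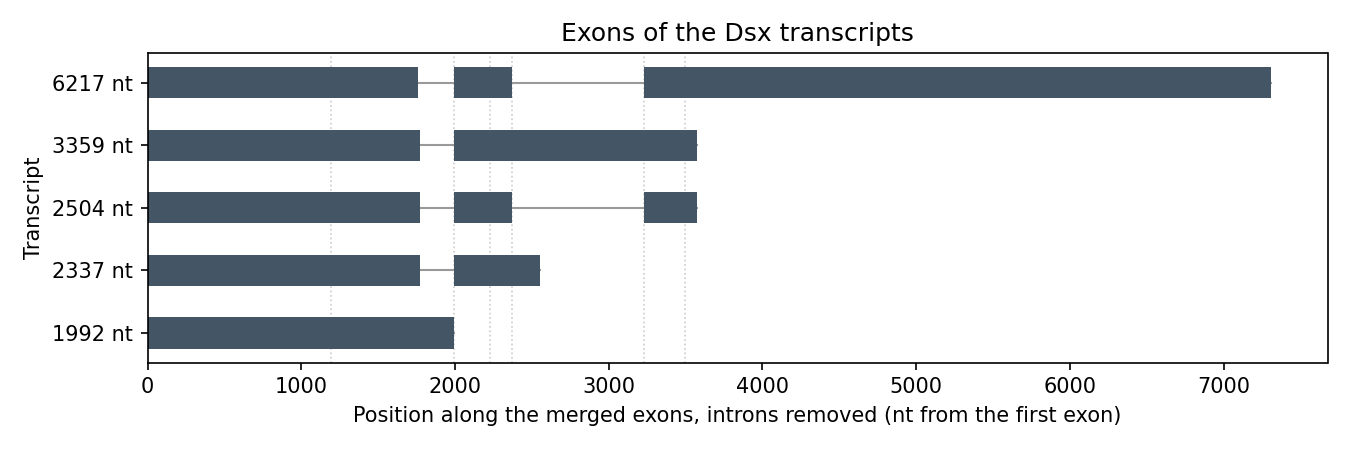
Exons of the 5 annotated *Dsx* transcripts along the merged exons, with introns removed (x axis, nt from the start of the first exon). Filled boxes are exon sequence, thin lines stretches that a transcript skips, and dotted lines exon borders. The 3359-nt and 2504-nt transcripts differ only in the 855-nt exon, and the long last stretch, 3734 nt, belongs to the 6217-nt transcript alone.

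Most *Dsx* reads went to the 6217-nt transcript in every library. Its share of the gene's estimated counts was 89.2% and 90.8% in workers, 90.0% and 89.0% in queens, and 92.2% and 94.3% in drones. The stretch of 3734 nt that no other transcript holds makes up 60.1% of its length, so reads from there can be assigned only to it. No annotated transcript joins the internal exon in which the transcripts differ to this stretch. The 6217-nt transcript therefore cannot show by its share how often that exon was skipped in RNA that holds this stretch. Tested as a single transcript, it was lower in drones than in females by nearly as much as the whole gene (log2 fold change -1.81, standard error 0.10, FDR 0.00106 in edgeR's test over 18968 transcripts, of which 11.2% were called). It was also lower than in queens (-1.97, FDR 0.00122, with 10.1% called) and than in workers (-1.65, FDR 0.00248, with 9.20% called), and it was called in the joint test of caste (FDR 0.00206, with 11.9% called) but not between queens and workers (0.32, FDR 0.205, with 5.29% called). Its usage relative to the whole gene was not called (relative log2 fold change between drones and females 0.05, FDR 1.00).

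The sexes differed in the transcripts with the short end. The 3359-nt transcript, which holds the 855-nt exon, had 83.1 and 35.3 estimated counts in workers, 290 and 156 in queens, and 10.6 and 0 in drones. This was 10.8% and 8.05% of *Dsx* counts in workers, 9.33% and 10.3% in queens, and 1.58% and 0% in drones. With 0 counts in drone replicate 2, the 95% Wilson interval of the share ended at 2.21%, which is below the share of every female library. The mean share was 9.62 ± 1.21% (SD, n = 4) over the female libraries, and 95% Wilson intervals of the female libraries began at 5.85% or above, while that of drone replicate 1 ended at 2.82%.

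The 2504-nt transcript, which skips the exon, showed the opposite pattern. The 2504-nt transcript was assigned 0 counts in all 4 female libraries, with 95% Wilson intervals of its share that ended at 0.123% to 0.867%. Drones had 42.0 and 9.77 estimated counts, 6.22% and 5.75% of *Dsx* counts (95% Wilson intervals 4.63% to 8.30% and 3.13% to 10.3%). With a drone mean of 1.11 CPM, it was at least 7.32-fold higher in drones than the limit of 3 counts in a queen library, and at least 2.62-fold higher than that limit in a worker library. Of the counts of these short-ended transcripts together, those with the 855-nt exon made up 100% in each female library (lower Wilson bound 90.2% or above), 20.2% in drone replicate 1 (interval 11.6% to 32.9%) and 0% in drone replicate 2 (0% to 28.2%). Every exon stretch of the 2504-nt transcript is also held by another transcript, and the longest transcript skips the 855-nt exon too. The counts of the 2504-nt transcript, including 0 in females, and the percentages with the exon therefore depend on how shared reads were divided. They are not direct counts of skipping. Intervals and limits cover counting error only, and not the error of dividing reads between transcripts that share exons.

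**Figure D4:**
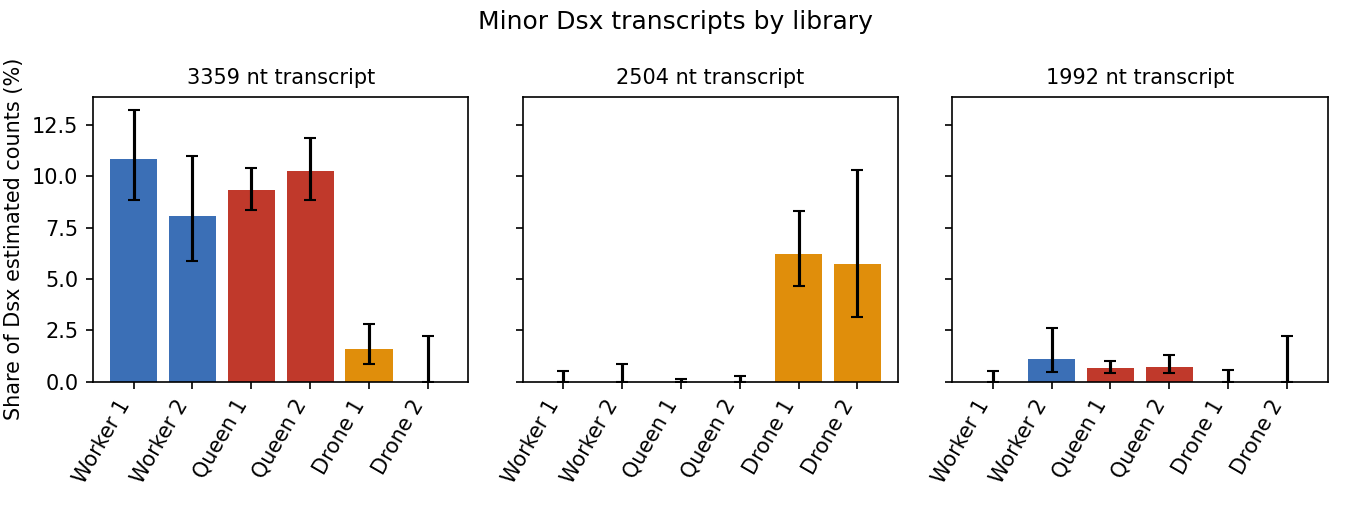
Share of *Dsx* estimated counts (%, y axis from 0) held by the 3359-nt, 2504-nt and 1992-nt transcripts in each library, as bars with 95% Wilson intervals. The 3359-nt transcript holds 8.05% to 10.8% in the female libraries and 0% and 1.58% in drones, whereas the 2504-nt transcript is at 0 in the female libraries and holds 6.22% and 5.75% in drones.

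The 2504-nt transcript passed the filter for the usage tests (5 counts in 2 libraries) only through the drone libraries, where it is high, so the shares above describe the difference and the tests that include it are no independent support. With it included, edgeR's test of differential usage gave *Dsx* an FDR of 0.00488 between drones and females, 0.0155 between drones and queens and 0.0281 between drones and workers. Such calls were made for 6.90%, 5.67% and 7.39% of the 3898 genes tested. Queens and workers were not called (FDR 0.998, with 5.80% of genes called). In the usage test of single transcripts, the 2504-nt transcript had an FDR of 0.00822 between drones and females (1.79% of 12699 transcripts were called), 0.0365 between drones and queens (1.41% called) and 0.0845 between drones and workers (1.33% called). No transcript of *Dsx* was called between queens and workers, where 1.07% of transcripts were. The 3359-nt transcript had a relative log2 fold change of -3.16 between drones and females and was not called in edgeR's usage test (FDR 0.218). In edgeR's test of the expression of single transcripts, neither the 2504-nt nor the 3359-nt transcript was called in a contrast with drones. Against females, queens and workers, the FDR was 0.0621, 0.0974 and 0.135 for the 2504-nt transcript. For the 3359-nt transcript it was 0.0543, 0.0595 and 0.0725. On simulated data with the spread seen between transcripts here, the usage test found few of the changed genes and its share of false calls was above the nominal level.

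These usage calls depended on the 2504-nt transcript and on single libraries. Between drones and females, the FDR of the gene was 0.128 both without queen replicate 1 and without queen replicate 2. Between drones and queens it was 0.318 and 0.338 without these libraries. Between drones and workers the call was lost without them (0.164 and 0.161) and without worker replicate 2 (0.0582) or drone replicate 2 (0.0579). For the 2504-nt transcript the FDR between drones and females rose to 0.223 and 0.199 without queen replicates 1 and 2, and that between drones and queens to 0.680 and 0.639. A filter of 5 counts in at least 3 libraries takes out the 2504-nt transcript, which was assigned counts in 2. None of the contrasts with drones was then called, with an FDR of the gene of 0.140 against females, 0.196 against queens and 0.166 against workers.

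The remaining transcripts were rare. The 1992-nt transcript had 0 and 4.90 estimated counts in workers, 20.2 and 10.8 in queens, and 0 in both drone libraries, so that both queen libraries held it at 0.648% and 0.712% of *Dsx* counts. It was at least 1.67-fold higher in queens than the limit of 3 counts in a drone library, and its usage was not called between drones and queens (FDR 0.628). The 2337-nt transcript was listed at 0 in every library.

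Shares by TPM, which weigh each transcript by its length, gave more room to the short forms but kept the pattern. The 3359-nt transcript then made up 13.8% to 18.7% of *Dsx* in the female libraries and 2.69% in drone replicate 1, and the 2504-nt transcript 14.5% and 13.7% in drones. The short-ended transcripts together took 16.1% and 17.6% in queens, 18.7% and 13.8% in workers, and 17.2% and 13.7% in drones, ranges that overlap. With the 6217-nt transcript left out, an alternative added after the data were seen, the other *Dsx* transcripts summed to 6.80 and 5.66 CPM in workers, 7.64 and 8.40 CPM in queens, and 1.50 and 1.02 CPM in drones. The difference between drones and females was then -2.40 on the log2 scale (standard error 0.27, FDR 8.78e-05 in edgeR's test).

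The neighbours of *Csd* and *Fem* on chromosome 3 did not follow a single pattern. The protein-coding gene LOC100578464 lies between them (11782378 to 11784542) and was read at 3.03 and 2.11 CPM in workers, 0.640 and 0.655 CPM in queens, and 2.76 and 2.60 CPM in drones. Like *Csd* and *Fem*, it was called higher in drones than in females (log2 fold change 1.05, standard error 0.33, FDR 0.0354) and not called against workers. It was low in queens only: drones exceeded queens (log2 fold change 2.05, standard error 0.40, FDR 0.00324) and queens fell below workers (standard error 0.41, FDR 0.00657), whereas drones and workers were at a like level (0.04, FDR 0.946). The pseudogene LOC100576888 in the same interval had at most 1 count in any library. The pseudogene LOC113218621 (11796664 to 11798564) lies on the *Fem* strand inside the intron between the *Fem* exons of 185 nt and 111 nt. It had 44 counts in drone replicate 1, 3 in each queen library and 0 in the other libraries, and did not pass the filter on low counts.

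Of the 3 long noncoding RNA genes on the other side of *Csd*, 2 were called lower in drones than in females. LOC102653649 was read at 5.98 and 5.63 CPM in workers, 3.69 and 3.17 CPM in queens, and 1.51 and 1.25 CPM in drones (drones against females -1.67, FDR 0.00139). LOC107964138 was called as well (-1.18, FDR 0.00364), while LOC107964140 (-1.01, FDR 0.0561) was not, although it was called lower in drones than in workers (FDR 0.0194). The protein-coding genes beyond *Fem*, LOC551408 and LOC724886, were not called between drones and females (FDR 0.625 and 0.927). LOC551408 was highest in workers, at 131 and 135 CPM against 97.0 and 99.6 CPM in queens and 109 and 113 CPM in drones. It was called lower than in workers in both drones (-0.26, FDR 0.0196) and queens (-0.44, FDR 0.00157).

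Of 17 other genes that act in sex determination or dosage compensation in insects, mainly known from *Drosophila*, the gene table named 2. *Tra2* encodes an RNA-binding partner of the Fem and Transformer proteins in splicing. It was read at 198 and 207 CPM in workers, 186 and 183 CPM in queens, and 168 and 175 CPM in drones. The drone libraries lay below the female libraries by a small step (log2 fold change -0.17, standard error 0.06, FDR 0.0485 in edgeR's test), which was called against workers (-0.24, FDR 0.0253) but not against queens (-0.11, FDR 0.275). The other, matched by its symbol *Snf* alone, had at most 5 counts in a library and was not tested. The other 15 genes were not analysed here.

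Genes with a pattern like that of each member were sought among those with a symbol other than a locus number and a mean of at least 1 CPM, by the root mean square difference of mean-centred log2 CPM over the 6 libraries. Of 287 genes compared with *Dsx*, the nearest were *nAChRa6* (difference 0.0997), a nicotinic acetylcholine receptor subunit, and the dopamine receptor genes *Dop1* (0.198) and *DopR2* (0.199). *nAChRa6* was read at 115 and 128 CPM in workers, 133 and 130 CPM in queens, and 36.9 and 34.9 CPM in drones. For *Csd* the nearest of 288 genes were *Dat* (0.325), *Apd-3* (0.327), an apidermin of the cuticle, and *Cpap3-d* (0.352), a chitin-binding cuticle protein gene. For *Fem* they were the odorant receptor gene *Or63* (0.310), *Apd-3* (0.347) and *Grd* (0.361). The differences were larger for *Csd* and *Fem*, which have few counts, than for *Dsx*.

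Markers of cell types were compared beside these results, since their levels also moved with phenotype. The 4 neuronal markers named by the table (*brp*, *Syt1*, *Syx1A* and *Para*) summed to 786 to 974 CPM in workers, 1174 to 1203 CPM in queens and 612 to 720 CPM in drones, and 1 of the 4, *brp*, was lower in drones than in females. The 3 muscle markers named summed to 146 to 194 CPM in workers, 820.0 to 914 CPM in queens and 86.4 to 101 CPM in drones. Of these, 2 were called lower in drones than in females, 3 lower than in queens and 1 lower than in workers. The 3 germ line markers summed to 98.1 to 106 CPM in workers, 96.7 to 113 CPM in queens and 77.8 to 80.6 CPM in drones, a sum carried by *aub*. Between drones and females *aub* was called lower and *nanos* higher in drones. The sums of these 3 lists were lowest in drones, unlike the photoreceptor and fat body sums given below. That of the neuronal markers was carried by *brp*, at 554 to 1140 CPM over the libraries against at most 64.9 CPM for *Para*.

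The 5 hypopharyngeal gland markers summed to 20856 to 22051 CPM in workers and to 4.38 to 9.15 CPM in queens and drones, although the glands were removed. The 4 photoreceptor markers summed to 4790 to 4805 CPM in workers, 563 to 584 CPM in queens and 2340 to 2595 CPM in drones. This sum, highest in workers, was mostly *Lop1*, which ran from 550 to 4624 CPM over the libraries. Against workers, 1 of the 4 was called higher and 1 lower in drones. *Blop*, the blue opsin gene, differed from the sum and had the order of *Csd* and *Fem*. It was read at 1009 and 1105 CPM in drones, 173 and 178 CPM in workers, and 11.5 and 11.7 CPM in queens (drones against females 4.55, FDR 1.29e-10 in edgeR's test). The 5 fat body markers summed to 6.55 to 8.59 CPM in workers, 40.3 to 86.4 CPM in queens and 14.2 to 21.4 CPM in drones, and 2 of the 5, *Hex70a* and *Hex70c*, were called higher in drones than in females. The only glial marker named, *Gat-1B*, stood at 1.15 to 2.79 CPM over all libraries. The part of these cell types in the differences of *Csd*, *Fem* and *Dsx* was not tested.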

How the data were processed

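RNA-seq was analysed for 6 libraries, and the ATAC-seq and ChIP-seq parts of the study were not used here. The authors quantified strand-specific reads with Kallisto (version not given in the sources used here) against EnsemblMetazoa transcripts of Amel_HAv3.1, and deposited estimated counts, which are not normalized, and TPM for each of 28409 targets, with exon coordinates for 28381. Targets carry numbers, so they were paired by coordinates with RefSeq genes of the same assembly, whose table gave symbols. The 177 targets with no gene held 7.26% to 10.4% of counts and were left out.

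The estimated counts of a gene's targets were added and rounded. A gene entered the tests with 5 counts or more in 3 libraries (9688 kept, 2601 removed), and a transcript entered the usage test with 5 counts in 2 libraries. Both were tested with edgeR 4.0.16 in R 4.3.3 (TMM, quasi-likelihood, caste as only factor, diffSpliceDGE for usage). The fit had 3 residual degrees of freedom and a coefficient of variation between pools of 14.7%. With 2 libraries against 2 an exact permutation test cannot go below 0.333, so none was run. A floor of 3 counts per library corresponded to 0.0738 to 0.422 CPM. Fits were tested on simulated data. DESeq2 1.42.0, limma 3.58.1, other scalings and filters, thinning, a replicate block and left-out libraries were alternatives. Members and gene lists were chosen with earlier results of these data known. The genes named are the members, listed sex determination genes, 3 neighbours on each side of *Csd* and *Fem*, and the 3 genes most like each member.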

Additional observations from a re-analysis of the deposited data

How the results depend on the processing

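The calls of *Dsx* between drones and females, queens and workers and in the joint test of caste held in each alternative run. The other calls of *Csd*, *Fem* and *Dsx* each depended on a setting or a library, and the calls of neighbours, *Tra2* and marker genes were run under no alternative. The lists of values below give edgeR log2 fold changes for contrasts and FDR values for joint and usage tests, unless another tool is named, and the causes were not tested.

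For *Csd*, DESeq2 gave a log2 fold change of 2.04 between drones and females, no longer called, and an FDR of 0.0843 in the joint test. Tested as a single transcript it was 2.03 against females and 2.50 against queens, neither called, with a joint FDR of 0.194. Limma on log2(TPM + 1) and log2(TPM + 0.1) called it between drones and workers, with 0.50 and 1.16. With each library left out in turn, values ran from 1.84 to 2.30 against females, from 2.35 to 2.59 against queens, and the joint FDR from 0.0215 to 0.108. A filter of 10 counts in every library left out *Csd* and *Fem*. After thinning to the smallest library, *Csd* did not pass the filter on low counts, so it was not tested at equal depth.

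For *Fem*, calls were lost against females and queens with DESeq2 (1.43 and 1.65), library totals alone (1.30 and 1.52), limma on log2(TPM + 1) (0.54 and 0.60) and on log2(TPM + 0.1) (0.87 and 0.99), and as a single transcript (1.40 and 1.60). The joint test called it with DESeq2's size factors (0.0476) and with no filter beyond 1 count (0.0467). With libraries left out, values ran from 0.68 to 1.82 against females, from 0.89 to 2.04 against queens, from 0.46 to 1.60 against workers, and the joint FDR from 0.0141 to 0.508.

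The call of *Dsx* between queens and workers was lost with DESeq2 (0.28), its size factors in edgeR (0.28), library totals (0.29), limma on log2(TPM + 0.1) (0.45), the 6217-nt transcript alone (0.32), thinning to the smallest library (0.28) and without the 6217-nt transcript (0.36). With libraries left out, values ran from 0.26 to 0.30. The *Dsx* usage calls were lost with a filter of 5 counts in 3 libraries (FDR 0.140 against females, 0.196 against queens and 0.166 against workers). With libraries left out, these FDR values ran from 0.00829 to 0.128, from 0.00924 to 0.338 and from 0.0342 to 0.164.

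Directions turned only for usage of single *Dsx* transcripts that were not called. Between queens and workers the relative log2 fold change of the 3359-nt transcript was below 0 with limma's diffSplice after voom (-0.0024), with thinning (-0.10) and with 1 library left out (-0.14 to 0.30), and that of the 6217-nt transcript above 0 with thinning (0.0093) and with 1 library left out (-0.022 to 0.0056). The 1992-nt transcript turned with worker replicate 1 or 2 left out (-0.74 to 6.32 between queens and workers, and -5.26 to 1.73 between drones and workers). Limma's diffSplice, which sets a transcript against the gene's other transcripts rather than the whole gene, gave -1.18 for the 6217-nt transcript between drones and females. Unlike edgeR's test, diffSplice called lower usage of the 3359-nt transcript in drones. Its FDR was 0.0102 against females, 0.0106 against queens and 0.0199 against workers. No other alternative called the usage of this transcript in these contrasts.

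Sample titles give only a replicate number, so whether same-numbered pools were paired is not known. Same-numbered pools did not deviate in the same direction. The correlation of their deviations was -0.02 between workers and queens, -0.09 between workers and drones and -0.35 between queens and drones. With a replicate block in the fit, the calls of *Fem* against females (1.36) and queens (1.56), of *Dsx* between queens and workers (0.30), of *Csd* in the joint test (FDR 0.0658) and of *Dsx* usage (FDR 0.0539 against females, 0.107 against queens and 0.139 against workers) were lost, and the usage calls over all genes fell from 269 to 146 between drones and females, from 221 to 127 between drones and queens, from 288 to 138 between drones and workers and from 226 to 108 between queens and workers.

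Counts of called genes moved with single libraries as well. Between queens and workers, 2155 genes were called, against 1310 without worker replicate 1, 1285 without queen replicate 1 and 1190 without queen replicate 2, and between drones and queens 2977 against 1979 without queen replicate 1. Usage calls ranged from 109 to 390 between drones and females, from 76 to 292 between drones and queens, from 145 to 401 between drones and workers, and from 60 to 346 between queens and workers with libraries left out, and diffSplice called 510, 575 and 390 genes in the first, second and last of these. The share of calls between drones and females that were higher in drones was 47.9% here, 33.0% with library totals, 19.5% with limma on log2(TPM + 1) and 20.1% on log2(TPM + 0.1), where the median of all genes shifted to -0.11, -0.22 and -0.30. The *Csd* and *Fem* differences are above and the *Dsx* difference is below these shifts. The precision of *Csd* and *Fem* is limited by their counts, at most 22 in any female library.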
